A study of Homo sapiens with 9 samples.

Results

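A small set of 1 kb bins on the human autosomes drew many times the reads of ordinary bins when nascent DNA was sequenced. These bins were selected by their summed reads: those in the top 0.1%, above 260 reads over all 9 libraries, were taken as members. They numbered 2868 of 2881044 autosomal bins, out of 3137207 bins in each table. Because they were chosen on their reads, the size of those reads is a description and was not tested. Such peaks are usual where many copies of a repeat share a few copies in the reference, but no repeat or gene annotation of the hg19 build was used here. The members are therefore called by position and not by repeat family, and no sequence is shown.

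The libraries came from 2 established human lines. RPE1 derives from retinal pigment epithelium and is kept dividing by telomerase, while HCT116 derives from a colorectal carcinoma. Growing, unsynchronised cells of both lines took up the thymidine analogue EdU for a short time, were sorted by flow into early, mid and late S phase, and had their labelled DNA captured on streptavidin. RPE1 was done as 2 sets of 3 libraries and HCT116 as 1 set of 3, with no other treatment named, and nothing in the labels says that the RPE1 sets were separate cultures. Per the labels, the mid and late HCT116 libraries are replicate 2 while the early one has no number.

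Centromeres of human chromosomes are built on alpha satellite, a short unit repeated in long tandem arrays, and the DNA around them holds further satellite families and segmental duplications. Older reference assemblies leave most of each array as a gap and keep fragments at its edges, so that reads from the whole array can pile up on those fragments. Heterochromatin of this kind is known for replication in the later parts of S phase, although alpha satellite arrays are often reported as mid to late.

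The deposited tables have no header, and the labels tie no column to an S phase fraction. The libraries are therefore called A, B and C by their place in each table, and no share below is a share of early, mid or late S. Autosomal totals ran from 5787062 reads (RPE1 set 1, library B) to 21857175 reads (RPE1 set 2, library A). The table names given with the samples imply that duplicate reads were taken out, which limits how many reads of 50 bases a bin of 1000 bases can keep. The highest count of a library in any autosomal bin was 1761, and 76 members (2.65%) had a library above 1000 reads. These 76 held 16.7% of member reads. The 754 members (26.3%) with a library above 200 reads held 67.5% of member reads. High counts can therefore be compressed towards each other, and the part of this in the shares was not tested beyond the alternatives given at the end.

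The members were few but held a visible part of the data. They made up 0.0995% of autosomal bins and 2.33% of autosomal reads, 2580343 of 110771395. A member's summed reads ran from 261 to 12792, with a median of 422.5 and quartiles of 318 and 747, against a median of 35 reads for all autosomal bins. The reads were concentrated within the members too: the 287 bins with the most reads, each at 2475 or above, held 45.0% of all member reads.

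The threshold cut through a continuous range of values. Just outside it, 365 bins had 241 to 260 reads, and just inside it, 303 bins had 261 to 280. Of the outer bins 51.2% and of the inner bins 55.8% lay within 2 Mb of the longest stretch without reads on their chromosome. Library C took 41.7%, 54.1% and 49.0% of the scaled reads of the outer bins in RPE1 set 1, RPE1 set 2 and HCT116, and 42.5%, 55.4% and 49.9% of the inner ones. The bins at the edge of the set thus resembled those left out.

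In every set, library C put the largest part of its reads into members. In RPE1 set 1, members held 1.38% of the autosomal reads of library A, 2.36% of library B and 2.69% of library C. In RPE1 set 2 these were 1.10%, 2.04% and 4.08%, and in HCT116 1.91%, 2.08% and 5.33%. The order A, B, C was the same in all 3 sets, and the value of C ranged from 2.69% to 5.33%, so its size differed between the RPE1 sets by more than that of A or B. Counting error was small, with 95% Wilson intervals of 2.68% to 2.70% for C in set 1 and 5.31% to 5.35% for C in HCT116. These intervals cover counting error only.

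The members were gathered beside the long stretches without reads that mark the centromere gap or the unsequenced short arm of each chromosome in this build. The longest such stretch measured 2.999 Mb on chromosome 2 and 21.049 Mb on chromosome 1, and it stands in here for the gap because no gap table was used. Within 2 Mb of it lay 1835 members, 64.0%, against 2.71% of autosomal bins with a read. Those members held 80.0% of member reads. The closest 0.1 Mb alone held 850 members, 29.6%, against 0.145% of bins with a read.

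**Figure D1:**
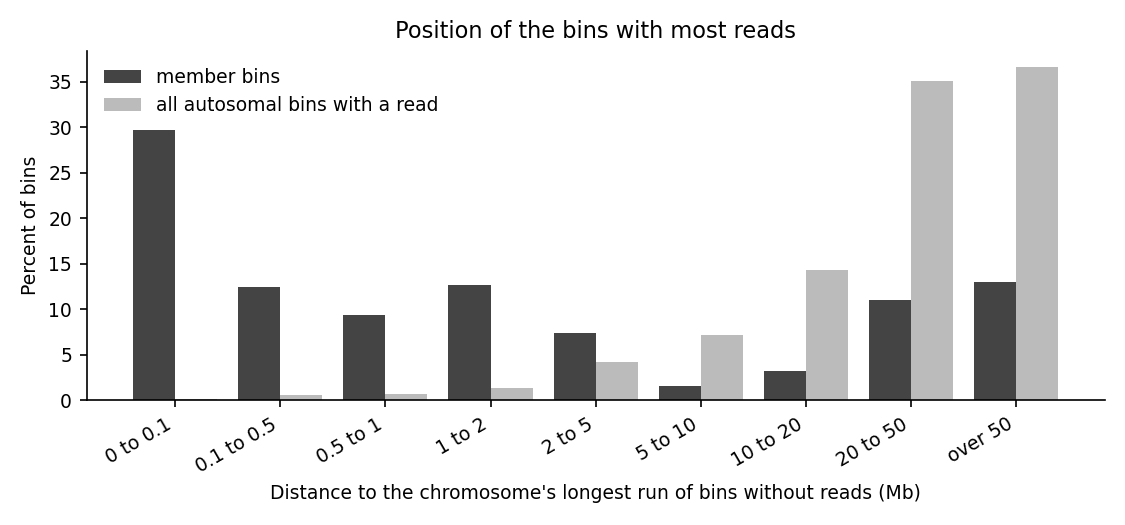
Bars show the percent of member bins (dark) and of all autosomal bins with a read (light) by distance in Mb to the longest run of bins without reads on the same chromosome. Members reach 29.6% in the closest class, where the light bar is 0.145%, and fall below the light bars beyond 5 Mb.

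Chromosomes differed widely in how many members they had. Chromosome 10 had 299, chromosome 2 had 255, chromosome 21 had 243 and chromosome 8 had 231, while chromosome 13 had 13. As a part of all reads of the chromosome, members were highest on chromosome 21 at 9.71%, followed by chromosome 16 at 6.60%, chromosome 10 at 5.94% and chromosome 4 at 4.78%. On chromosomes 13 and 3 they were 0.141% and 0.281%. How much repeat sequence the build holds and how many copies the cells carry cannot be told apart in these counts.

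Members lying no more than 50 kb apart were joined into 573 clusters. Most clusters were small, with 380 of 1 bin and 84 of 2 bins. The 79 clusters of at least 5 bins, called large below, held 2218 members (77.3%) and 88.5% of member reads, and 59 of them lay within 2 Mb of the longest run without reads. The 5 clusters with the most reads held 32.3% of member reads and the first 10 held 46.5%.

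The largest clusters by number of bins lay, with 1 exception, within 2 Mb of their run. On chromosome 21, chr21:10698001-10861000 had 145 members over 163 kb and 107794 reads. On chromosome 10, the edges of the run held chr10:39076001-39155000 with 79 members and 60475 reads, and chr10:42355001-42429000 with 57 members and 181514 reads. On chromosome 4, chr4:49093001-49161000 had 67 members and 209920 reads, the most reads of any cluster. Members filled most of the length of each of these blocks.

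Chromosome 16 had a block on either side of its run of 11.099 Mb. The one at lower coordinates, chr16:33864001-34023000, had 67 members and 44051 reads. The other, chr16:46385001-46501000, starting directly at the end of the run, had 66 members and 185883 reads. Chromosome 2 had chr2:92241001-92327000 with 58 members and 147859 reads. The other clusters among the 12 with the most bins were chr1:121351001-121486000 (54 members), chr8:43760001-43839000 (52), chr5:49405001-49542000 (50) and chr19:27731001-27907000 (50), all touching their run, and chr8:86726001-86841000 (90), far from it. That last block is the only 1 of the 12 that lay over 2 Mb from the longest run, at 39889 kb.

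The bins with the most reads were on 3 chromosomes. In chr1:121484001-121485000, libraries A, B and C had 1240, 1286 and 1524 reads in RPE1 set 1, 1439, 1519 and 1649 in set 2, and 1285, 1436 and 1414 in HCT116, 12792 in all, or 365 times the median autosomal bin. In chr7:61969001-61970000 the 9 counts ran from 1065 to 1567 and summed to 11699. The next 3 bins were neighbours, chr6:58776001-58777000, chr6:58777001-58778000 and chr6:58778001-58779000, with 8467, 10727 and 11143 reads. In the first of these bins the 9 raw counts lay between 1240 and 1649, although the library totals differed more widely, and the part of duplicate removal in this was not tested.

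The 1033 members over 2 Mb from the longest run are called elsewhere below. Not all of them are far from a gap. Within 2 Mb of any run of at least 1 Mb lay 1902 members, against 1835 for the longest run alone. Of the 1033, 427 were in 20 large clusters and 606 in 468 clusters under 5 bins. Those small clusters lay near chromosome ends more often than bins at large: 93 of the 468 (19.9%) were within 2 Mb of an end, where 2.93% of bins with a read lie, and 168 (35.9%) were within 5 Mb, against 7.38%. Nothing in the rule used the position of the ends.

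The rise in reads was sharp at members over 2 Mb from the longest run. Around members closer to the run, the rise spread wide in libraries B and C. Levels were taken as the mean reads of a bin over the mean of all autosomal bins with a read in the same library. In RPE1 set 2, members elsewhere stood at 8.45, 10.4 and 17.2 in libraries A, B and C, and bins 6 to 10 kb from a member were back to 1.26, 1.05 and 1.04. Members beside a run stood at 11.4, 24.0 and 50.0, and bins 6 to 10 kb away were at 1.01, 2.16 and 4.51. Library A of this set was thus back at the mean bin there, while B and C were not. At 91 to 100 kb from such members library C was at 1.87, and in RPE1 set 1 and HCT116 it was at 2.08 and 1.93. So the surroundings of the gap clusters are themselves above average in library C in all 3 sets, which matters for any comparison with flanks.

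**Figure D2:**
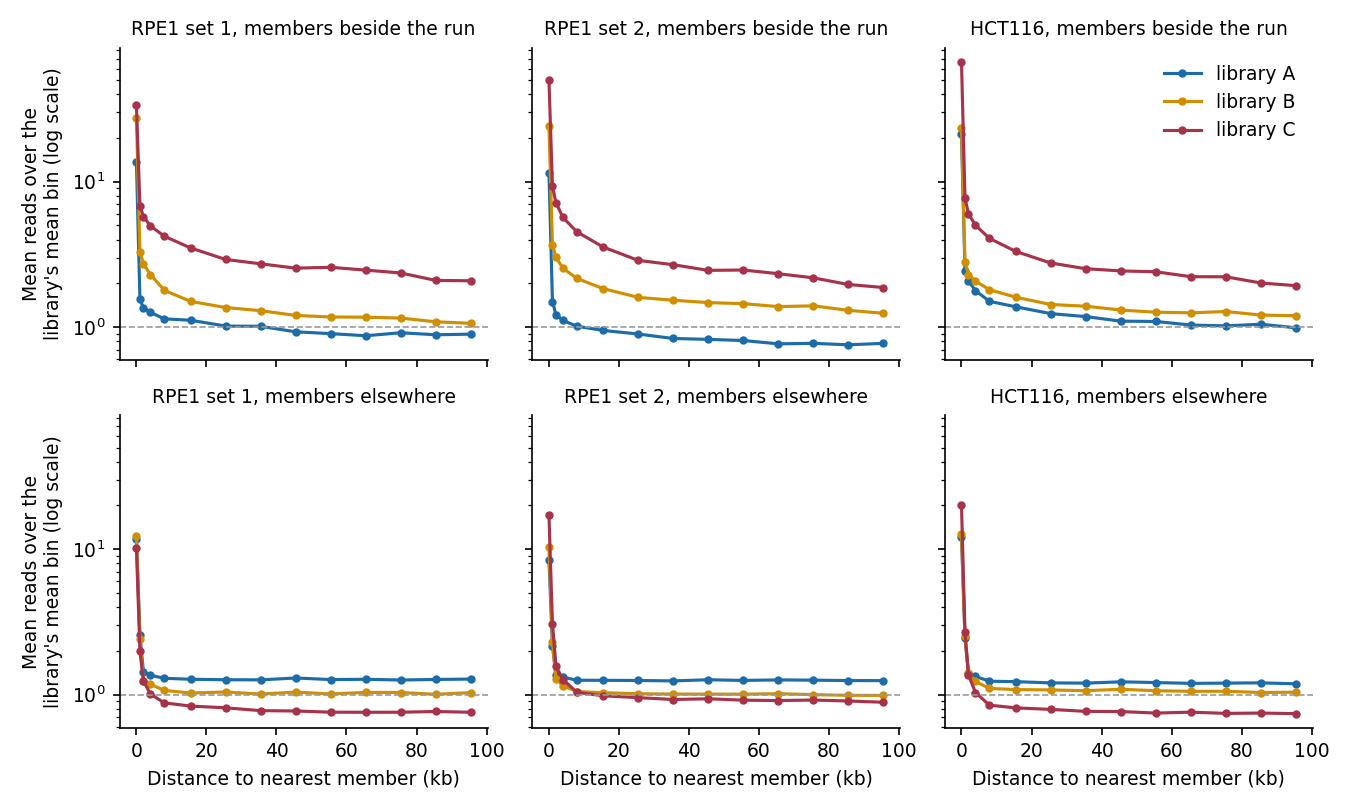
Each panel plots the mean reads per bin, over the mean bin of the same library (log scale), against distance in kb to the nearest member, for libraries A, B and C of 1 set; distance 0 is the members themselves. Beside the runs (top) library C stays above 1 out to 100 kb, while elsewhere (bottom) all libraries are between 0.846 and 1.29 at 6 to 10 kb.

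For the split between libraries, each library was scaled to the same autosomal total, and a share is the percent of the scaled reads of its set, so that 33.3% is even. Summed over all members, the shares of A, B and C were 21.5%, 36.6% and 41.9% in RPE1 set 1, 15.3%, 28.3% and 56.4% in set 2, and 20.5%, 22.3% and 57.2% in HCT116. The flank, 49336 non-member bins 50 to 100 kb from the nearest member, had 38.9%, 32.5% and 28.6%, then 36.9%, 31.6% and 31.5%, then 37.8%, 34.0% and 28.2%. Library C was thus higher in members than in flank by 13.2, 24.9 and 29.0 percentage points. For RPE1 this is a mean of 19.1 ± 8.28 (SD, n = 2 sets), and the 1 HCT116 value lies 9.87 points above it, near the spread between the RPE1 sets, so the lines were not separated by it.

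That summed difference mixes unlike places. Most member reads come from the gaps, while most flank bins surround the many small clusters elsewhere. When each cluster was set against its own flank and weighted by its member reads, library C differed by -4.82 points in RPE1 set 1, 10.2 in set 2 and 13.7 in HCT116. The median over the 561 clusters with a usable flank (at least 20 bins, and 100 reads in each set) was -2.84, 9.92 and 8.84. The RPE1 sets therefore differed in the sign of the C difference once members were matched to their own surroundings, and its mean over the RPE1 sets, 2.70 ± 10.6 (SD, n = 2) in the weighted form, was smaller than its spread.

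In RPE1 set 1 it was library B that stood above the flank. By cluster weight, B differed from the own flank by 6.90 points in set 1, -4.58 in set 2 and -7.71 in HCT116. For library A the values over all clusters were -2.08, -5.64 and -6.00 points. It was the only library whose weighted difference over all clusters had 1 sign in all 3 sets. In the clusters elsewhere the weighted A difference was 0.239, -7.49 and -6.11 points, so the sign was not shared there. The median of A over all clusters was 0.80 in set 1 and -6.18 and -6.85 in set 2 and HCT116, so the median did not keep that sign. Library B of RPE1 set 1 had the fewest reads of all libraries. Its share was 33.5% in members of 261 to 299 summed reads and 41.8% in those of 4000 or more. Summed over all members, its difference from flank was 4.10 points, and 1.51 without members above 200 reads in a library. With duplicates put back under 2000 positions per bin it was 3.27. The part of duplicate removal in this was not tested beyond these alternatives.

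The same held for the gap clusters taken alone. Beside a run, 78 clusters with a flank had member shares of 17.8%, 37.3% and 44.9% in RPE1 set 1, 13.3%, 28.3% and 58.4% in set 2, and 19.3%, 21.2% and 59.5% in HCT116. Their flanks, summed, had library C at 53.7%, 51.3% and 48.9%. The C difference there was -8.86, 7.02 and 10.6 points, against 13.2, 24.9 and 29.0 over all members. Both the members and the flanks of these clusters were thus weighted to C, and the members were not uniformly more so.

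Clusters elsewhere with under 5 bins had another make-up. Their members had 41.5%, 40.3% and 18.3% in RPE1 set 1, 28.9%, 30.8% and 40.3% in set 2, and 31.3%, 33.3% and 35.4% in HCT116. In RPE1 set 1 library C was the lowest of the 3 and in set 2 it was the highest. In their own flanks, weighted in the same way, C was 23.3%, 28.6% and 23.9%. The RPE1 sets thus differed from their flank in opposite directions, by -5.02 and 11.7 points, and HCT116 by 11.5. Clusters elsewhere with at least 5 bins were nearer to those beside the runs, with C at 43.8%, 55.5% and 53.1%.

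**Figure D3:**
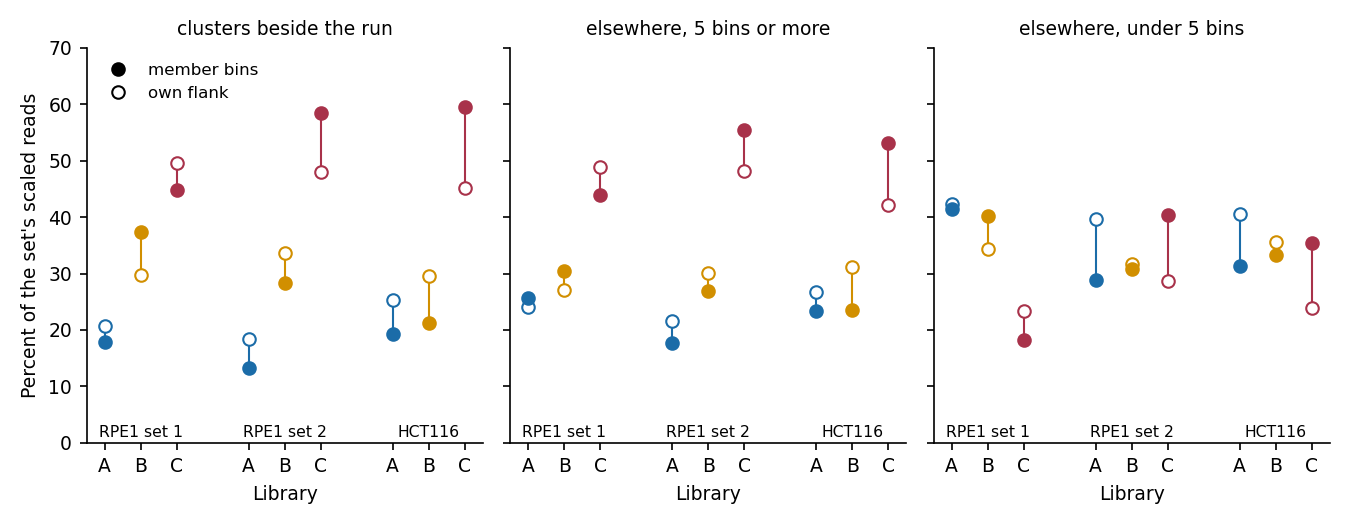
Points give the percent of scaled reads of each set in libraries A, B and C for member bins (filled) and for each cluster's own flank weighted by member reads (open), in clusters beside the run, large clusters elsewhere and small clusters elsewhere. In library C the filled point lies below the open one in RPE1 set 1 and above it in RPE1 set 2 and HCT116 in all 3 panels.

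Single bins showed both directions. Library C was above its own flank in all 3 sets in 808 of the 2802 members that could be compared, 28.8%, against 12.5% of all autosomal bins compared in the same way. It was below flank in all 3 sets in 554, 19.8%, against 18.1% of all autosomal bins. The share called above was thus over the background, at 28.9% beside a run and 28.6% elsewhere. The share called below was close to the background only when pooled. It was 23.7% of members beside a run (427 of 1800) and 12.7% of those elsewhere (127 of 1002). Members carry many more reads than other bins and so have less counting noise, and the part of this in the counts was not tested.

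Although the RPE1 sets differed in level, their differences from flank went together over the clusters. The C difference from flank correlated between RPE1 set 1 and set 2 with Pearson's r of 0.814 over 561 clusters, and with HCT116 at 0.669 and 0.688. Beside the runs, over 78 clusters, the values were 0.908, 0.849 and 0.893. These are descriptions across clusters, which share their libraries, scaling and chromosomes and are not independent. For library B the same values over 561 clusters were lower, at 0.591, 0.327 and 0.473.

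Gap clusters on different chromosomes resembled each other more than their flanks did. Among 52 large clusters beside a run, the SD over clusters of the C share was 9.17 points in members and 17.3 in flanks in RPE1 set 1, 7.86 and 13.0 in set 2, and 7.79 and 15.3 in HCT116. The same order held for library A, with 4.78 against 7.81, 3.38 against 6.47 and 4.00 against 8.08. Members have many more reads than flanks, so part of the wider spread of flanks is counting error, which was not separated.

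The large clusters were divided into groups by limits set after the values were seen. The limits use library B and A of RPE1 set 1 and library A of HCT116. Since the shares of a set add up to a whole, they also bind the other shares of those sets, and RPE1 set 2 is bound in so far as the RPE1 sets are alike. The group values are therefore descriptions and support nothing. The first group had library B of RPE1 set 1, the library with the fewest reads, at 38% or more with A at 30% or less. The part of duplicate removal in its high B was not tested. It held 20 clusters on 13 chromosomes, 17 of them beside a run, with 549 members and 30.4% of member reads.

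Its clusters included blocks at the very edge of the run on chromosomes 1, 2, 4, 6, 8, 11, 12, 17, 18 and 19. The median shares of A, B and C were 16.7%, 44.3% and 38.1% in RPE1 set 1, 15.5%, 31.9% and 52.9% in set 2, and 22.5%, 23.8% and 53.4% in HCT116. In set 2 library B lay between 29.4% and 36.8% in all 20, which is tied to the choice, since the B difference correlated between the RPE1 sets with r = 0.724 over the 78 clusters beside a run. A cluster at each edge of the chromosome 8 run shows how alike they could be: chr8:43760001-43839000 had 13.9%, 32.3% and 53.8% in set 2, and chr8:46839001-46908000, across the run, had 14.1%, 33.0% and 52.9%.

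Reads per library in this group are shown by chr2:92241001-92327000. Libraries A, B and C had 9022, 11274 and 16926 reads in RPE1 set 1, 15465, 21539 and 29930 in set 2, and 10640, 15920 and 17143 in HCT116. After scaling, B was 50.8% in set 1, 34.5% in set 2 and 25.1% in HCT116, while its flank had 22.7%, 33.1% and 27.1%. In library B members and flank thus differed by 28.1 points in set 1, by 1.44 in set 2 and by -2.01 in HCT116.

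The cluster chr6:58773001-58781000 is the smallest block with one of the top bins, 8 members with 5369 summed reads per bin. It had 16.9%, 48.5% and 34.7% in RPE1 set 1, 18.8%, 36.8% and 44.4% in set 2 and 22.4%, 24.3% and 53.3% in HCT116. Its flank had library C at 64.0%, 54.2% and 61.7%, so that members were lower in C than their surroundings in all 3 sets. On chromosome 7, chr7:61967001-62034000 did the same, with C at 34.2%, 49.4% and 53.1% against 67.4%, 64.9% and 65.1% in flank, and it had 1 of the 3 highest A differences in RPE1, 8.64 ± 0.0871 points (SD, n = 2 sets).

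The second group had library A of HCT116 at 17% or less. It held 24 clusters on 12 chromosomes, 19 beside a run, with 824 members and 31.9% of member reads, among them chr21:10698001-10861000, chr4:49093001-49161000 and chr10:39076001-39155000. Median shares were 19.6%, 27.5% and 51.6% in RPE1 set 1, 11.2%, 23.8% and 64.7% in set 2, and 15.3%, 19.8% and 65.2% in HCT116.

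The block with the most reads belongs here. In chr4:49093001-49161000, libraries A, B and C had 12470, 8663 and 29547 reads in RPE1 set 1, 15441, 22675 and 53497 in set 2, and 10087, 20295 and 37245 in HCT116. Its C shares were 46.0%, 61.9% and 67.0%, and its flank had 28.5%, 32.8% and 27.8%, so members and flank lay far apart in every set. In chr21:10698001-10861000, C was 54.2%, 63.7% and 67.4% in members and 58.1%, 52.2% and 54.4% in flank, which is lower than flank in set 1 and higher in the other sets.

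Some blocks of this group had far less of library A than their surroundings. At chr1:224199001-224205000, 81665 kb from the run, A was 22.2%, 11.5% and 13.0% in the 6 members and 57.2%, 52.1% and 51.6% in flank. At chr10:38773001-38819000 it was 18.4%, 10.1% and 11.8% in 44 members and 40.9%, 32.7% and 37.9% in flank. These had 2 of the 3 lowest A differences, -37.9 ± 3.94 and -22.5 ± 0.101 points in RPE1 (SD, n = 2 sets). The other was chr16:46385001-46501000 at -20.4 ± 3.84, with C at 58.3%, 65.2% and 62.9% in members and 13.3%, 21.4% and 21.0% in flank, although it fell in none of the groups. At all 3 places library A was far lower in the members than around them in every set.

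Another group had library A of RPE1 set 1 at 14% or less and was outside the first and second. It held 16 clusters on 11 chromosomes, 14 beside a run, with 471 members but only 7.48% of member reads, since reads per bin ran from 324.5 to 752. Median shares were 12.2%, 34.9% and 53.1% in RPE1 set 1, 10.6%, 26.5% and 63.1% in set 2, and 19.8%, 20.6% and 59.8% in HCT116. The flanks of these clusters were rich in library C too, with medians of 64.7%, 61.1% and 58.6%. The cluster with the most reads in it, chr5:49405001-49542000, had C at 61.8%, 68.9% and 65.1% against 52.5%, 50.4% and 50.0% in flank.

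Members of this group lay away from the longest run at 2 places. In chr11:48805001-48964000, at 2632 kb, C was 52.2%, 63.3% and 58.6% in 49 members, and in chr21:14338001-14369000, at 4928 kb, it was 52.7%, 61.4% and 60.7% in 19 members. Their flanks had C at 66.0%, 64.1% and 58.2%, and at 62.8%, 53.4% and 59.1%. In HCT116 members and flank were alike at both.

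**Figure D4:**
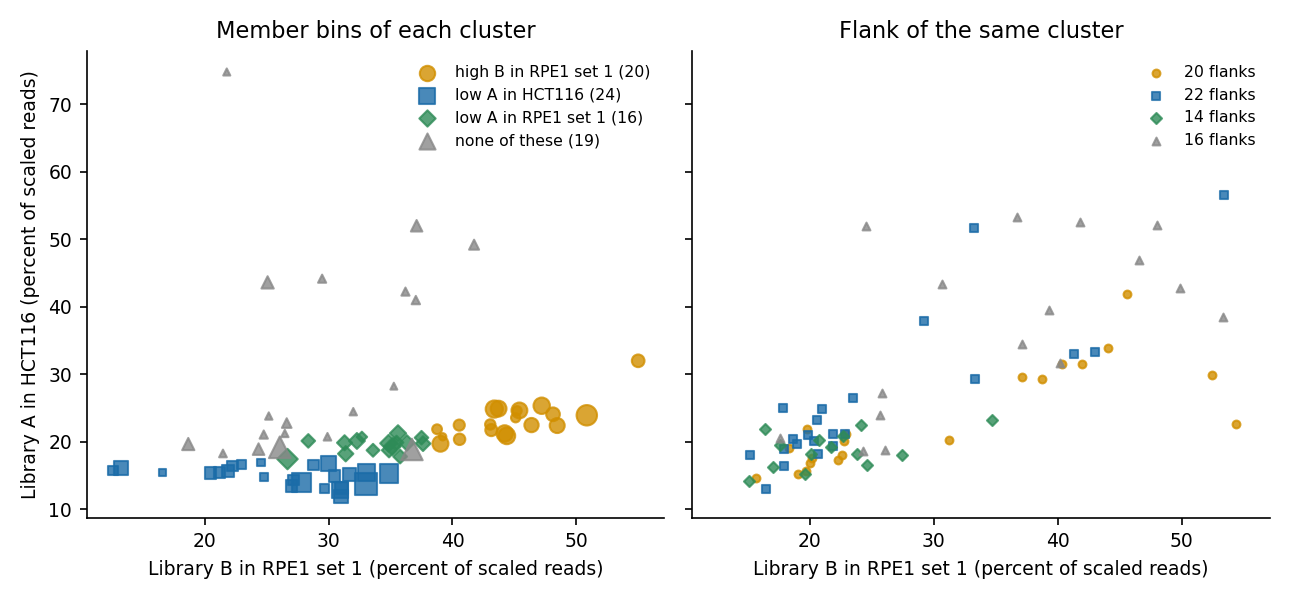
Each point is a cluster of at least 5 members, placed by library B of RPE1 set 1 and library A of HCT116 (percent of scaled reads of the set), for members on the left, with marker area growing with the square root of reads, and for flanks on the right. The groups were set from these values, and their flanks overlap over most of the range.

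The remaining 19 large clusters were mixed. In chr1:161411001-161442000, 23 members had 53.3%, 41.7% and 4.92% in RPE1 set 1, 46.0%, 35.8% and 18.2% in set 2 and 49.2%, 36.3% and 14.5% in HCT116. Its flank had C at 5.20%, 17.1% and 15.8%, so library C was near its flank in each set. Libraries A and B were farther from it in RPE1 set 1, with 46.8% and 48.0% in flank, than in set 2, with 47.1% and 35.8%, while HCT116 had 52.0% and 32.2% there.

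The cluster chr1:228744001-228782000 was an unbroken tract of 38 members led by library A. Libraries A, B and C had 2300, 654 and 227 reads in RPE1 set 1, 3205, 1376 and 1041 in set 2, and 2787, 2479 and 631 in HCT116. A was 57.6%, 47.5% and 52.0% of scaled reads, against 38.9%, 40.1% and 46.9% in flank, the highest A difference of the large clusters at 13.1 ± 7.98 points in RPE1 (SD, n = 2 sets). All 3 sets showed A above flank here, with counting errors (SE) of 1.88, 1.25 and 1.76 points.

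Near the start of chromosome 1, chr1:564001-571000 had 7 members and 19359 reads, with A, B and C at 45.6%, 25.1% and 29.3% in RPE1 set 1, 34.2%, 25.8% and 40.0% in set 2, and 43.6%, 21.3% and 35.1% in HCT116. The nuclear genome holds copies of mitochondrial DNA, whose replication is not tied to S phase, and the mitochondrial sequence gives a side by side value. Its 17 bins had 40.4%, 31.4% and 28.2%, then 32.3%, 28.7% and 39.0%, then 41.6%, 23.0% and 35.3%. The shares of the cluster differed from the mitochondrial ones by at most 6.29 points in set 1, 2.91 in set 2 and 1.94 in HCT116. Whether the bins share sequence with it was not tested, since no genome of this build was used.

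The cluster chr8:86726001-86841000 lay where library C was high all around, with C at 67.8%, 71.1% and 62.9% in 90 members and 68.6%, 55.2% and 52.2% in flank. Libraries A, B and C had 1780, 552 and 6903 reads in RPE1 set 1, 1657, 2230 and 8206 in set 2, and 2217, 4120 and 6529 in HCT116. Library B was 13.3% in set 1, the second lowest of the large clusters after the 12.6% of chr8:86555001-86576000, a nearby block of 17 members. These blocks of chromosome 8 were also higher in HCT116, as given next.

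The other named clusters away from the run include 2 of the first group and 1 of the second. In chr2:132972001-133046000 (29 members) library C was 38.0%, 54.5% and 47.7% against 49.4%, 45.0% and 47.9% in flank, and in chr9:69957001-70011000 (25 members) it was 41.7%, 57.6% and 53.6% against 39.3%, 37.4% and 32.6%. In chr18:106001-113000 (7 members, 8945 reads) it was 59.9%, 54.5% and 64.9% against 32.4%, 31.5% and 19.4%. C was above flank in all 3 sets on chromosomes 9 and 18, and on chromosome 2 in RPE1 set 2 alone.

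Comparing the lines asks how much of each set's reads fell in members. Members held 2.12% of autosomal reads in RPE1 set 1, 2.23% in set 2 and 2.80% in HCT116. HCT116 was 1.32 times set 1 and 1.26 times set 2, a mean of 1.29 ± 0.0480 (SD over the 2 RPE1 sets), while set 2 was 1.05 times set 1. The difference between lines was larger than that between the RPE1 sets, but with 1 HCT116 set it has no error of its own and no test. These sums weight each library by its depth, and with each library weighted equally the ratio was 1.37.

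Library C held the difference between lines in part and library A also. Mean reads per member over mean reads per flank bin were 10.5, 21.4 and 27.7 for A, B and C in RPE1 set 1, 8.57, 18.5 and 37.1 in set 2, and 15.1, 18.3 and 56.5 in HCT116. HCT116 was above both RPE1 sets in A and C, and in B it was close to RPE1 set 2.

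Cluster by cluster, the 79 large clusters had a median ratio of 1.18 for HCT116 over RPE1 set 1 and 1.11 over set 2. HCT116 was above both sets in 47 and below both in 18. Between the RPE1 sets the ratio had a median of 1.08 and ran from 0.742 to 1.63. A ratio of at least 1.5 over both RPE1 sets was reached in 7 large clusters and 1 had at most 1 over 1.5. In 67 of the 79, both ratios to RPE1 lay within the span of the RPE1 ratio, whose ends were set by single clusters. Set against the RPE1 ratio of the same cluster, both line ratios lay farther from 1 and on the same side in 37 of the 79, with HCT116 higher in 32 and lower in 5. In the flanks of the 72 large clusters with a usable flank, the median ratios of HCT116 to RPE1 set 1 and set 2 were 0.860 and 1.04. Both ratios were higher in members than in flank in 37 of these 72 clusters and lower in 8. These cluster counts were not made over other regions of the genome.

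By bin, 289 of 2865 members (10.1%) had HCT116 at 1.5 times or more of both RPE1 sets, against 7.71% of all autosomal bins with reads in each set. Few had the opposite: 79 (2.76%) were at 1 over 1.5 or less of both, against 12.8% of all such bins. Ordinary bins have far fewer reads than members, and the part of counting noise in these background shares was not tested. Beside the runs 65 of 1835 (3.54%) were higher in HCT116, and elsewhere 224 of 1030 (21.7%) were. By number of bins, higher members were thus mostly those away from the gaps. Neighbouring bins of 1 tract are counted singly here. Away from the gaps, chr8:86726001-86841000 with 90 members and chr1:228744001-228782000 with 38 had summed ratios above 1.5 to both RPE1 sets. How many of the 224 bins come from such tracts was not counted. In summed reads the difference between lines was not limited to them. Members beside the runs, with 80.0% of member reads, had HCT116 at 1.34 times RPE1 set 1 and 1.26 times set 2. Elsewhere these ratios were 1.38 and 1.35 in clusters of at least 5 bins, and 1.18 and 1.15 in smaller ones.

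The highest ratios among large clusters with a flank were at 3 places. At chr7:56438001-56443000, 5 members had 163, 64 and 259 reads in RPE1 set 1, 180, 244 and 524 in set 2, and 204, 644 and 231 in HCT116, ratios of 2.82 and 2.26. At chr19:36765001-36799000, 13 members had ratios of 2.61 and 2.04, and at chr1:228744001-228782000 they were 2.35 and 2.08. In flank the ratios were 0.960 and 1.15, 1.05 and 0.910, and 1.30 and 0.957. The flanks were thus nearer to an equal level in both lines than the tracts were.

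At chr8:86726001-86841000 the ratios were 1.77 and 2.11 in members and 1.00 and 1.64 in flank, so part of the ratio to set 2 was found in the flank too. On the same chromosome, chr8:43092001-43098000 had 1.93 and 2.15. Whether the lines differ in copy number of these tracts, in alignment or in timing cannot be told apart from these counts.

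The lowest ratio was at chr4:187353001-187358000. Its 5 members had 339, 102 and 530 reads in RPE1 set 1, 263, 315 and 549 in set 2, and 6, 1 and 1 in HCT116. RPE1 was 95.6 times HCT116 by set 1 and 70.9 times by set 2, while the flank ratios of HCT116 over RPE1 were 0.753 and 1.01. The tract was thus nearly without reads in HCT116 while far above ordinary bins in both RPE1 sets, a difference larger than any difference between the RPE1 sets at a large cluster. Its HCT116 shares rest on 8 reads and are not read. The next lowest were chr4:52660001-52681000 at 0.954 and 0.587, where RPE1 set 2 was 1.63 times set 1, and chr10:135479001-135502000 at 0.767 and 0.665, with flank ratios of 0.575 and 0.409.

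Small clusters held further extremes, named here after their values were seen as those with a difference of at least 4 times. At chr4:190154001-190157000, 3 members had 1235 reads in RPE1 set 1, 1497 in set 2 and 38 in HCT116, ratios of 0.0391 and 0.0504. At chr20:48234001-48235000 the same sums were 155, 228 and 10, and at chr4:132664001-132672000 they were 249, 417 and 45. At these 3 places the flank ratios of HCT116 over RPE1 lay between 0.709 and 1.19, so the low values were again limited to the tract.

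On chromosome 10, chr10:134387001-134388000 and chr10:135151001-135153000 had 15 and 51 reads in HCT116 against 128 and 283 in RPE1 set 1 and 194 and 456 in set 2. Their flanks were low in HCT116 too, at 0.341 and 0.290, and at 0.414 and 0.369. Here the surroundings shared part of the difference, unlike on chromosomes 4 and 20.

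In the other direction, chr12:131130001-131131000 had 255 reads in HCT116 against 34 and 33 in the RPE1 sets, ratios of 9.53 and 15.3, and chr1:240348001-240349000 had 166 against 52 and 81, ratios of 4.05 and 4.07. A single place differed between the RPE1 sets: chr1:245019001-245028000 had 63 reads in set 1, 1239 in set 2 and 105 in HCT116, a ratio of 12.6 between sets of the same line. Its flank had 1.37. A tract can thus reach the top of the range in 1 library set alone, and 25 of the 573 clusters differed between the RPE1 sets by at least 1.5 times, 24 of them under 5 bins. The same count was not made over ordinary bins.

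**Figure D5:**
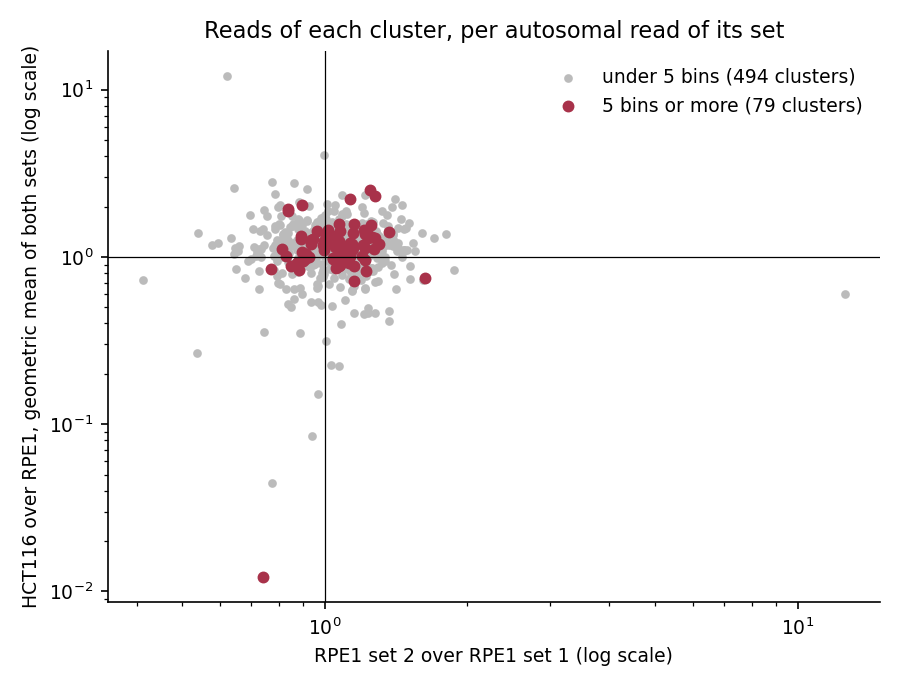
Each point is a cluster, with its reads per autosomal read in RPE1 set 2 over set 1 on the horizontal axis and in HCT116 over RPE1 (geometric mean of both sets) on the vertical axis, both on log scales. Large clusters lie between 0.742 and 1.63 on the horizontal axis, and the lowest point is the chromosome 4 tract with 8 reads in HCT116.

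The choice of bins was largely repeated by each set alone. With the percentile taken in 1 set only, 2861 bins passed in RPE1 set 1, 2866 in set 2 and 2882 in HCT116. The RPE1 lists shared 2423 bins, 84.7% of the set 1 list and 84.5% of the set 2 list. The set 1 list shared 2331 with HCT116 (81.5% and 80.9%), and the set 2 list shared 2380 (83.0% and 82.6%). All 3 lists held 2176 bins, 75.9% of members, while 347 were in the HCT116 list only and 247 in both RPE1 lists and not in HCT116. These last counts are unlike, since the first is of a single list and the other of bins shared by 2 lists. They do not measure a difference between lines, because an RPE1 list also holds bins that the other RPE1 list lacks.

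Seen in a set that did not choose them, the bins were far above ordinary bins. Their level in the choosing set was not set beside this. Bins chosen in RPE1 set 1 had a median of 198 reads in set 2 and 109 in HCT116, where bins with a read had medians of 17 and 9. Their means were 20.7 and 25.9 times the mean bin. The overlap between lines was 3.22 points below that between the RPE1 sets as a share of the set 1 list.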

How the data were processed

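The deposited tables hold raw read counts per 1 kb bin, 3 count columns for each set and no header. The build hg19 and the tools bedtools 2.25, SAMtools 1.2 and Bowtie2 are listed, without roles, per the submitters' processing notes. Table names given in the labels imply removal of duplicates; the method, and the treatment of reads with several matches, are unknown here. The members, clusters and groups were chosen with earlier results of these data known. Counts were summed over all 9 columns, and autosomal bins in the top 0.1% were members. Members up to 50 kb apart formed a cluster. The flank was all other autosomal bins with a read whose nearest member lay 50 to 100 kb away. Libraries were scaled to equal autosomal totals, which ran from 5787062 to 21857175 reads. Clusters were named by rank in bins, reads, library A difference and line ratio, with those ranked by reads over 2 Mb from the longest run and the last 3 lists limited to at least 5 bins. No test was run, since an exact two-sided test could not give a p below 0.25 for member minus flank over 3 sets or below 0.333 between lines; RPE1 spread is the SD over 2 sets, which may be technical. Alternatives changed the percentile, joining distance, flank, scaling, weights and sets. Scripts were tested on simulated data and run in Python 3.11.15 with numpy 2.4.6, pandas 2.3.3 and scipy 1.17.1. No genome of hg19 was used.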

Additional observations from a re-analysis of the deposited data

Results flagged for a closer look

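At chr1:564001-571000 the library A share minus flank was -9.01 points in HCT116 and above 0 in both RPE1 sets. At chr2:89830001-89880000, 48 members with 70662 reads that lay 2448 kb from the run, the library B share minus flank was -6.57 points in HCT116 and above 0 in both RPE1 sets. Both were listed because the lines lay on opposite sides of their flank, and the difference was not tested. On chromosome 1, A in members was 45.6%, 34.2% and 43.6% in RPE1 set 1, set 2 and HCT116. In flank it was 37.4%, 31.2% and 52.6%, so the lines differed in the flank and HCT116 members lay between the RPE1 sets. On chromosome 2 the B difference was 17.9 points in set 1 and 3.24 in set 2, farther apart than set 2 and HCT116.

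Bins above the same 260 reads were also found outside the autosomes: 393 of 214645 on X and Y, all 17 of the mitochondrial sequence and 649 of 41501 on other contigs. Library C took 48.7%, 59.1% and 62.8% of the scaled reads of the X and Y bins in RPE1 set 1, RPE1 set 2 and HCT116, and 35.2%, 50.3% and 51.8% of those on contigs. No control library was used here.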

How the results depend on the processing

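Of 162 values recomputed under other settings, 122 stayed within a limit, 34 moved past it and 6 changed sign. The limit was 1.5 times for counts, the 95% interval for position and overlap, and 1 SD of the RPE1 sets otherwise, which is wide for library B (5.25 points): its 4.10 in RPE1 set 1 fell to 0.876 for the top 0.5% and counts as within. Taking the top 0.5% or 0.01% of bins gave 14312 or 289 members, 3932 or 32 clusters, and 3.60%, 3.75% and 4.27%, or 0.943%, 0.961% and 1.37%, of the reads of RPE1 set 1, RPE1 set 2 and HCT116, by construction. Members within 1 Mb and 5 Mb of the run were 51.4% and 71.4%, and 66.3% lay within 2 Mb of any run of at least 1 Mb. The library C difference from flank in the 3 sets was -2.84, 9.92 and 8.84 as a median over clusters, -12.1, 0.769 and 8.26 for the top 0.01%, and -4.82, 10.2 and 13.7 with own flanks weighted by member reads, an alternative added after seeing the data. Library A of RPE1 set 1 turned to 0.80 as that median and 0.893 for the top 0.01%, and library B of HCT116 to 0.200 as that median. The cause was not tested. HCT116 over RPE1 was 1.37 with libraries weighted equally. The set 1 list shared 59.7% with set 2 and 53.0% with HCT116 at the top 0.5%, and 93.8% and 91.7% at the top 0.01%. Leaving out a whole set gave 2854 to 2881 members, and line ratios of 1.26 to 1.32. Putting back duplicates under 2000 positions per bin, also added later, gave C differences of 14.8, 27.2 and 30.2. The B differences were then 3.27, -4.45 and -12.2. Outside the autosomes a library reached 2029 reads in a bin, so the limit of 2000 positions does not hold for every bin. No paired analysis was possible because the lines share fewer than 2 replicate numbers; members and flanks were compared within each set.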
